A study of Mus musculus with 18 samples.

Results

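Mouse genes with names of the form Zfp and a number encode zinc finger proteins, and 232 of the 10509 genes measured in these pancreatic islets carry such a name. The 232 were taken by their symbols alone from the genes the authors listed. Each listed gene had a log2 value above 0 in 8 or more libraries, so the levels and the counts of unread members below describe listed genes, and Zfp genes outside that list were not analysed here. Islets came from mice fed a high-fat diet for 12 weeks. The knockout group (KO, labelled NRK1_BKO, n = 10 mice) lacks nicotinamide riboside kinase 1 in beta cells through an Ins1Cre driver, and the other group (WT, labelled NRK1_WT, n = 8) was fed the same diet. Sample titles of both groups begin with Ins1Cre, and the labels used here do not say whether WT mice carry the driver. Ins1Cre acts in beta cells, while whole islets also hold other endocrine, vascular and immune cells. Each mouse gave 1 library of 3' end reads (QuantSeq FWD).

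A zinc finger of the C2H2 type is a short protein loop in which a pair of cysteines and a pair of histidines hold a zinc ion. Many such proteins carry fingers in tandem, and neighbouring fingers read neighbouring bases of DNA, while others bind RNA or proteins. The largest class in mammals also carries a KRAB box, which recruits the co-repressor Trim28 and, through it, chromatin enzymes that silence transposons and other targets. Zinc finger genes of this class lie in clusters of near copies, and their transcripts are usually rare.

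Values are log2 of CPM plus a floor of 0.562 CPM, called the log2 level below. CPM here is reads times a factor for each library, and the factor does not follow total reads alone. Libraries KO 3 and KO 6 held 3292303 and 3295299 reads over the listed genes, but 1 read stood for 0.390 and 0.265 CPM. The factor was highest in WT 7 (0.411), KO 3 (0.390) and KO 2 (0.377), and at most 0.337 elsewhere (KO 1). A gene with no read sits at -0.83. Because the kit reads 1 fragment at the end of each transcript, levels of different genes were compared without division by length. In bulk islets, fewer cells of a type and less RNA per cell cannot be told apart.

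The class-defining sequences are shown for the 2 KRAB members of highest level, Zfp871 and Zfp950, for Zfp612 and Zfp30, which are named below for their values, and for Zfp867, the KRAB member of lowest level. They are coding DNA of a single exon on GRCm38, written 5′ to 3′ along the gene's own strand. Capitals mark the 24 bases that code for the core of the KRAB A box (leucine and tyrosine, 2 free residues, valine and methionine, 1 free residue, glutamate).
Zfp871, chr17:32777411-32777464, minus strand: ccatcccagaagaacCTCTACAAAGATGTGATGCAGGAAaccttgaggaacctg
Zfp950, chr19:61127448-61127501, minus strand: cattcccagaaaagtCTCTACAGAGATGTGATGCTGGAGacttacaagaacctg
Zfp612, chr8:110083720-110083773, plus strand: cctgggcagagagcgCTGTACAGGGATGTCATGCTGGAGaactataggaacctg
Zfp30, chr7:29788112-29788165, plus strand: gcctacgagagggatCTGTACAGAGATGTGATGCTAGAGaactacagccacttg
Zfp867, chr11:59465461-59465514, minus strand: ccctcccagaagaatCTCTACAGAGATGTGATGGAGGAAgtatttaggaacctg
Between pairs of these 5 members, 18 to 22 of the 24 capital bases were identical, with 22 for Zfp871 against Zfp867 and for Zfp950 against Zfp30. The capital bases code for the pattern by which KRAB members were chosen, so much of this identity was fixed by that choice. Zfp871 and Zfp867 share 22 of these bases and lie at the 2 ends of the level range of KRAB members.

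A finger followed by its linker is shown for the same 2 high members, with capitals for the codons of the cysteines and histidines that hold the zinc.
Zfp871, chr17:32775456-32775539, minus strand: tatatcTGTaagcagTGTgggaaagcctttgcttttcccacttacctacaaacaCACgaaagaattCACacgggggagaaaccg
Zfp950, chr19:61120254-61120337, minus strand: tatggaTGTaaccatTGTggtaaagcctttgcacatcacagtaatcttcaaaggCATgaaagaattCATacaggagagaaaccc
The 4 zinc-holding codons stand at the same places in both stretches of 84 bases. The stretches were chosen by a pattern that sets the spacing of these codons, so their shared places follow from that choice.

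Libraries held 2831137 to 4303680 reads over the listed genes, and Ins2 alone took 44.6% ± 5.56 (SD, n = 10) of reads in KO and 38.7% ± 3.78 (SD, n = 8) in WT. KO 2, KO 3 and WT 7 stood apart, with 320, 227 and 346 listed genes at no read against 33 to 150 in the other 15 libraries. Results that rest on them are given with and without them. Of 8 beta-cell markers, 7 were listed, and their summed level was 375585 to 784157 CPM in KO (median 505196) and 398637 to 663954 CPM in WT (median 423550). The 4 listed alpha-cell markers had medians of 4226 CPM in KO and 7393 CPM in WT, with overlapping ranges. Delta-cell markers had medians of 1557 and 2197 CPM, and the PP-cell marker 540 and 470 CPM. These differences in islet make-up were not tested. Markers of acinar cells, a contaminant of islet preparations, summed to 46.4 to 1785 CPM in KO and 54.2 to 1668 CPM in WT. Nmrk1, the targeted gene, had a log2 fold change of -0.03 from 3 to 36 reads per library. Where in Nmrk1 the deletion lies is not stated in the labels, and reads from its 3' end therefore give no check of genotype.

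Zinc finger genes were expressed low in islets. The median member had a log2 level of 3.18 (quartiles 2.28 and 4.26) and 32.6 reads per library, against 4.10 and 62.4 reads for the median of all listed genes. The member median lay below the median of all genes in 18 of 18 libraries. Of the 232 members, 66 (28.4%) exceeded the all-gene median, 22 lay in the upper quartile of all genes and 82 (35.3%) in the lower quartile. Only 34 members (14.7%) averaged 100 reads or more, against 36.7% of all genes. At the other end, 26 members averaged under 10 reads, and 33 (14.2%) had no read in at least 1 library, against 11.1% of all genes. Together the members made up 2.21% of the listed genes but took 0.426% ± 0.0579 (SD, n = 10) of reads in KO and 0.448% ± 0.0312 (SD, n = 8) in WT. Of reads outside Ins1 and Ins2 they took 0.837% ± 0.0868 (SD, n = 10) in KO and 0.829% ± 0.0336 (SD, n = 8) in WT.

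**Figure D1:**
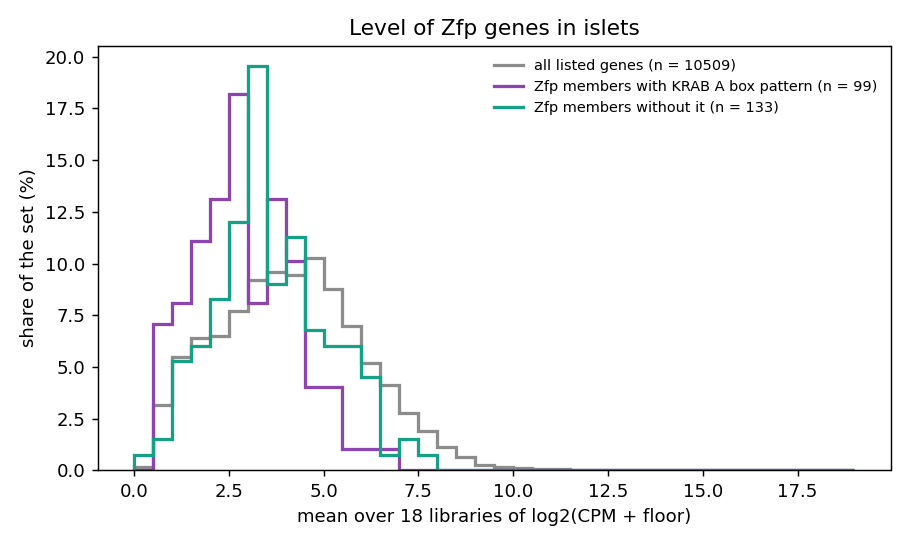
Distribution of the mean log2 level over 18 libraries, as the share of each set per bin, for all 10509 listed genes, the 99 Zfp members with a KRAB A box pattern and the 133 without it. The members without the pattern have a median of 3.42 and those with it 2.75, both left of the all-gene median of 4.10.

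Related families measured in the same libraries gave a frame for this level. The 28 Zbtb genes, which pair zinc fingers with a BTB domain, had a median log2 level of 3.57, the 16 Zscan and Zkscan genes 2.73 and the 11 Klf genes 3.96. The 22 listed beta-cell transcription factors stood higher, at 5.51.

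A few members stood well above the rest. Zfp292 (chromosome 4, 34803110 to 34882983, GRCm38), a very large zinc finger protein of 2698 residues, was the highest member in 18 of 18 libraries. Its log2 level had a lowest, median and highest value of 7.26, 7.84 and 9.19 in KO and 7.54, 7.76 and 7.94 in WT, from 574 to 1544 reads. The KO range enclosed the WT range, and KO 2 and KO 3 were its 2 highest libraries. Zfp91 (chromosome 19, 12766939 to 12796123), a ubiquitin ligase of the non-canonical NF-kB pathway, ran through 6.85, 7.24 and 8.70 in KO and 6.95, 7.38 and 7.82 in WT. Zfp106 (chromosome 2, 120506820 to 120563864), an RNA-binding protein needed by motor neurons, ran through 6.75, 7.09 and 7.80 in KO and 7.05, 7.41 and 7.65 in WT. These 3 genes were the top 3 members in 17 of 18 libraries.

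Behind them the levels were closely spaced. Zfp638, a nuclear protein that binds cytidine-rich DNA and is part of the silencing of unintegrated viral DNA, averaged 6.69 ± 0.41 (SD, n = 18) and Zfp871 averaged 6.63 ± 0.39 (SD, n = 18). Zfp950 (6.42), the short protein Zfp706 (6.34), Zfp644 (6.21), a partner of the histone methyltransferases G9a and GLP, and Zfp664 (6.11) followed. Zfp523, the paralog of Zfp143, averaged 6.09, Zfp148, which binds GC-rich promoters, 6.08, and Zfp608 6.05. From Zfp638 down, each of these genes differed from its neighbour in rank by less than the SD over libraries. The 12 genes together took 30.7% of all member reads, and Zfp292 alone took 5.72%. Zfp706 shares 32.6% of the 65-base windows in its last 400 bases with transcripts of other genes, so its level is uncertain.

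**Figure D2:**
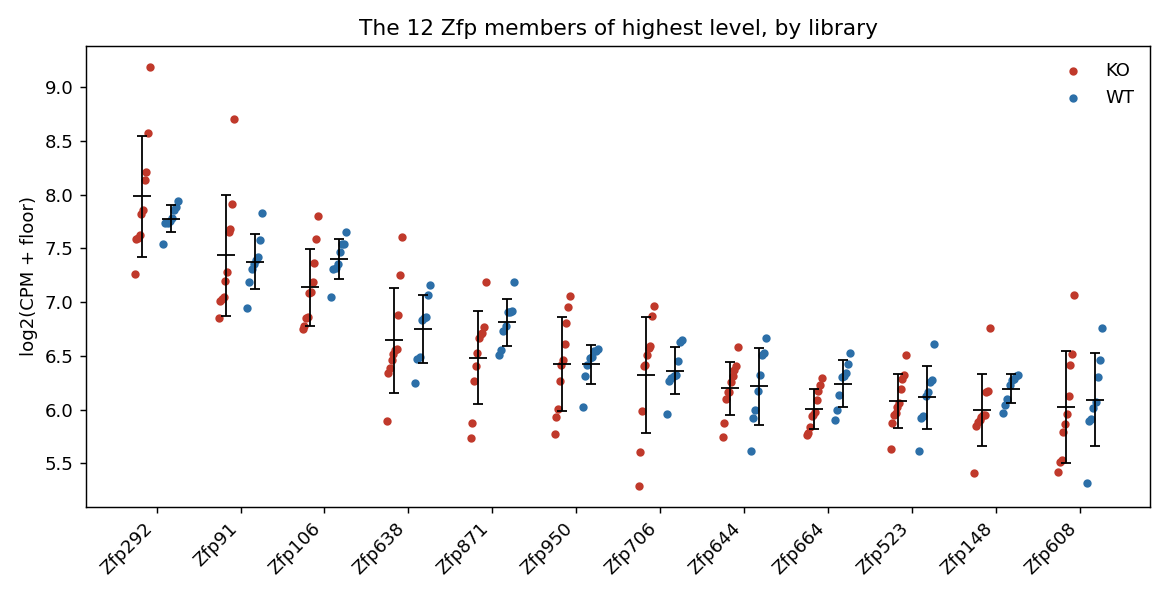
Log2 level of the 12 highest members in each library, KO in red (n = 10) and WT in blue (n = 8), with black bars for the mean ± SD. KO and WT overlap for each gene, and KO 2 is the highest point of Zfp292, at 9.19, and of Zfp91, at 8.70.

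Members with known roles outside the KRAB class spanned the range. Zfp800, a repressor of endocrine differentiation in the gut, averaged 5.86, Zfp326, which links transcript elongation to splicing, 5.86, and the spindle assembly protein Zfp207 5.67. Zfp598, the ubiquitin ligase that senses collided ribosomes, averaged 4.06. The double-stranded RNA binder Zfp346 averaged 3.39, the ribosome assembly factor Zfp593 3.03 and the transcription factors Zfp281 and Zfp217 3.12 and 3.01. Zfp410, an activator of the chromatin remodeler gene Chd4, averaged 2.96, while Chd4 itself averaged 9.05. The promoter-binding factors Zfp384 and Zfp143 averaged 2.29 and 2.27. Among all members, with or without a KRAB box, the fewest reads per library were those of Zfp11, Zfp3 and Zfp108, with means of 4.61, 5.0 and 5.06 and log2 levels of 0.45, 0.70 and 0.72. Each of these 3 had no read in 3 to 5 libraries.

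Level differed between protein classes. The KRAB A box pattern was found in the longest annotated coding sequence of 99 of the 232 members. Their median log2 level was 2.75, against 3.42 for the 133 members without it, and their median was the lower in 18 of 18 libraries. Of KRAB members 48.5% lay in the lower quartile of all genes, against 25.6% of the others, and 8 against 26 averaged 100 reads or more. Among the 12 highest members, 2 carry the pattern, Zfp871 and Zfp950. A looser pattern added 9 members to the class and left the medians at 2.73 and 3.46. Zfp445, which keeps parental imprints silent, averaged 3.09 and was not matched by the stricter pattern. Zfp809, which silences retroviruses, carries the pattern and averaged 3.81.

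Finger number moved with level as well. The proteins held a median of 10 fingers, from 0 matches in 5 members to 36 in Zfp142. The 20 members with 0 to 2 fingers had a median log2 level of 4.23, the 91 with 3 to 9 fingers 3.50 and the 121 with 10 or more 2.81. KRAB proteins also have more fingers, a median of 12 against 8. Among members with 10 or more fingers the 73 with the KRAB pattern had a median of 2.71 and the 48 without it 3.12. Among members with 3 to 9 fingers the medians were 3.14 (n = 26) and 3.56 (n = 65). Both orderings are descriptions over genes, since cluster neighbours share sequence and are not independent.

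Of the 2 chromosomes with the most members, only chromosome 17 had a clearly lower level. Chromosome 7 held 62 members (26.7%) and chromosome 17 held 27 (11.6%), with median levels of 3.16 and 2.26. The median was 3.18 over all members and 3.33 for the 143 on other chromosomes. On chromosome 17, 19 of the 27 carried the KRAB pattern, and these 19 had a median of 2.10 against 3.70 for the other 8. Shared 3' ends limit what 3' reads can assign, and the partners include zinc finger genes as well as unrelated genes and gene models. For 35 members some 65-base window of the last 400 bases is shared with another gene's transcript, and for 19 the shared part is at least 10%. These 19 had a median level of 2.61, and no source used here says how the authors handled reads that match several genes.

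Spread fell with read number, in members as in other genes. The median SD over 18 libraries was 0.99 log2 units for the 26 members under 10 reads, 0.71 from 10 to 30 reads, 0.48 from 30 to 100 and 0.36 at 100 reads or more. Other genes in the same read ranges had 0.97, 0.77, 0.49 and 0.35. Counting error alone would give members 0.53, 0.33, 0.20 and 0.10, so libraries differed by more than counting error in each range. The variance of reads was 3.94 times the counting variance in the lowest range and 9.12 times in the highest, against 4.06 and 11.8 for other genes. At equal relative spread between libraries this ratio rises with read number.

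**Figure D3:**
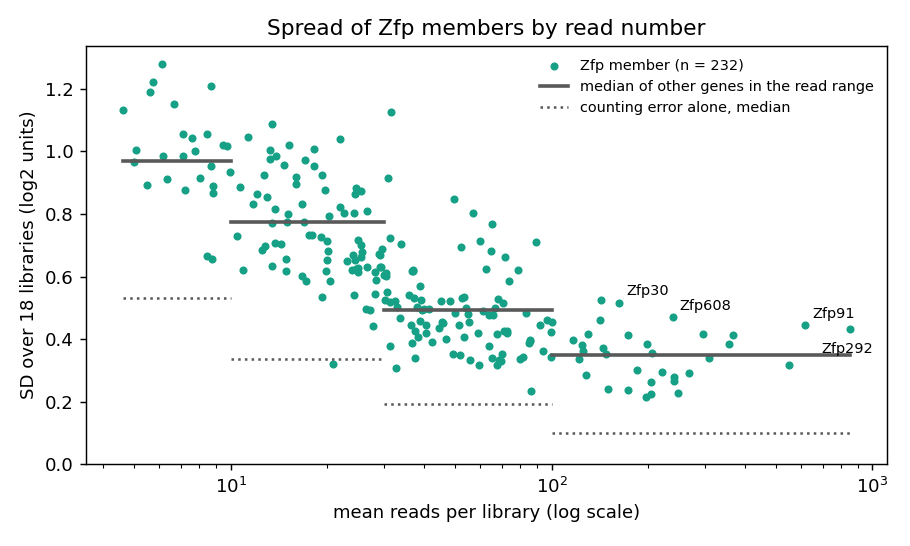
SD of the log2 level over 18 libraries for each of the 232 members against its mean reads per library (log scale), with the median SD of other genes (solid lines) and of counting error alone (dotted lines) in 4 read ranges. Member SDs fall from a median of 0.99 under 10 reads to 0.36 at 100 reads or more, near the 0.97 and 0.35 of other genes.

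The members that varied most beyond counting error were high ones, and KO 2 was their highest library in 5 of 6 cases. Zfp292 had 112 times the counting variance and Zfp91 81.5 times. In Zfp292, KO 2 and KO 3 reached 9.19 and 8.57 while the highest other library was 8.21. Without these 2 libraries the KO SD was 0.31 (n = 8) in place of 0.57 (n = 10), against 0.12 (n = 8) in WT. Zfp91 stood at 8.70 in KO 2 and at most at 7.91 in the other KO libraries. Zfp638, Zfp608 and Zfp30 stood at 7.60, 7.06 and 6.69 in KO 2. Zfp106 was the exception, with its highest value in KO 7 (7.80) and 6.85 in KO 2.

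The 3 libraries with the most unread genes also had the most members far above their own median, but not the most far below. Of the 34 members with 100 reads or more, 13 (38.2%) lay over 0.5 log2 units above their own median in KO 2, 11 (32.4%) in KO 3 and 7 (20.6%) in WT 7. The shares of all genes with 100 reads or more were 20.0%, 14.1% and 13.1% in these libraries. Between KO 2 and KO 3, 8 of the members were shared, and 4 (Zfp30, Zfp318, Zfp608 and Zfp638) were above in all 3 libraries. Over 0.5 below their median lay 5 of the 34 in KO 2, 1 in KO 3 and 4 in WT 7, where 27.7%, 15.9% and 15.8% of all genes with 100 reads or more did. The most lay below in KO 10, with 9 of the 34 (26.5%) over 0.5 below, against 12.5% of those genes. In KO 1, 5 of the 34 (14.7%) did, against 4.36%. KO 10 and KO 1 had 88 and 58 listed genes at no read. The part of library quality, or of the scaling factor of each library, in these values was not tested.

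How many members were poorly read followed the depth of the library. A fixed cut at 10 reads ties such a count to depth for low genes of any kind. The same count was not made for other genes, so the relation is not shown to be particular to the family. From 17 to 59 of the 232 members had under 10 reads, with 59 in KO 2 and 56 in both KO 3 and WT 7 against 17 to 40 elsewhere. Because these 3 libraries stand apart, the relation was also taken over the other 15. Both this relation and the set of 15 were added after the data were seen, so their p-values are descriptive. Over those 15, the number of members under 10 reads fell with total reads at Pearson r = -0.542 and Spearman rho = -0.643 (permutation p = 0.0363 and 0.0112, adjusted over 4 relations 0.103 and 0.0449). Against reads outside Ins1 and Ins2 the values were r = -0.713 and rho = -0.777 (permutation p = 0.00335 and 0.00098, adjusted 0.0134 and 0.00392). Leaving out the 2 libraries farthest from the median depth gave r = -0.692 and -0.712. With all 18 libraries r was -0.64 against total reads (permutation p = 0.0044, adjusted 0.0176). Within KO it was -0.6 (n = 10, permutation p = 0.0633) and within WT -0.742 (n = 8, exact permutation p = 0.053).

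**Figure D4:**
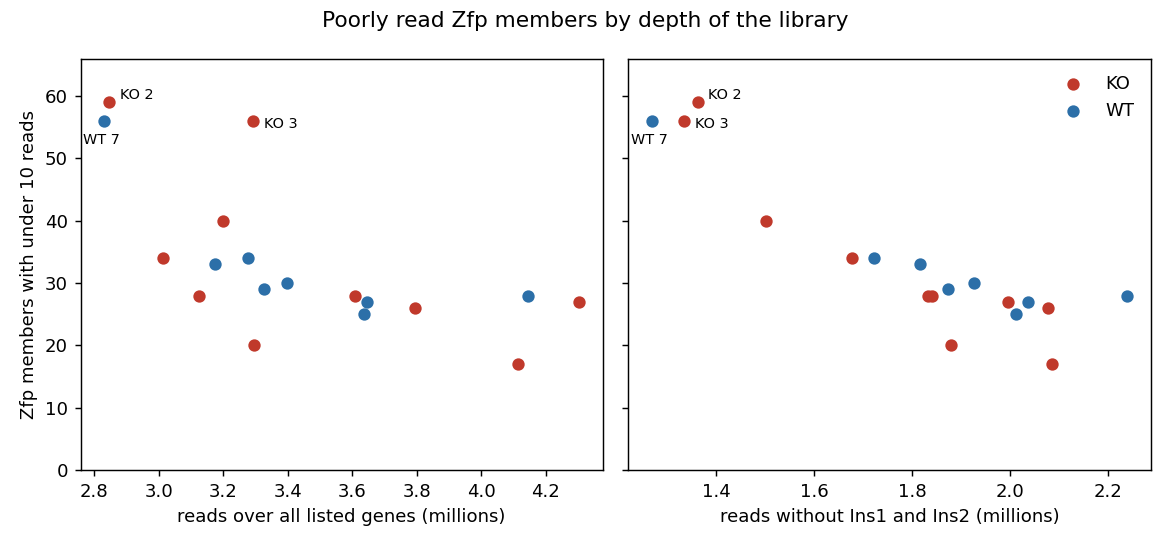
Number of Zfp members with under 10 reads in each library against total reads (left) and reads outside Ins1 and Ins2 (right), KO in red and WT in blue. KO 2, KO 3 and WT 7 lie at 56 to 59 members and the other 15 libraries at 17 to 40, falling to the right.

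None of the other 3 relations with total reads passed the test over 18 libraries. Members with no read numbered 0 to 11 per library, and gave r = -0.391 and rho = -0.326 against total reads over 18 libraries (permutation p = 0.106 and 0.186, adjusted 0.213 and 0.281) and r = -0.0218 over the 15. The mean log2 level of the members gave r = 0.159 and rho = 0.243 (permutation p = 0.526 and 0.33, adjusted 0.526 and 0.33). Their share of reads gave r = -0.324 and rho = -0.311 (permutation p = 0.19 and 0.211, adjusted 0.253 and 0.281). Over the 15 libraries without KO 2, KO 3 and WT 7, the mean level gave r = -0.133 and rho = -0.118 (permutation p = 0.634 and 0.678, adjusted 0.845 and 0.904). The share of reads gave r = -0.509 and rho = -0.564 over the 15 (permutation p = 0.0517 and 0.0308, adjusted 0.103 and 0.0616). Of all 18 libraries, KO 10 and WT 5 were farthest from the median depth. Leaving only these 2 out of the 18, r was -0.461 (no read), 0.355 (mean level) and -0.152 (share). Within KO the 3 values were -0.387, 0.0578 and -0.602, and within WT -0.399, 0.523 and 0.471. Runs of neighbouring animal numbers that hold both groups have 4 libraries each, too few for a value within a run.

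The family's mean level differed between KO and WT islets by less than the spread between mice. The mean log2 level of the members was 3.34 ± 0.08 (SD, n = 10) in KO, with a lowest, median and highest library of 3.22, 3.35 and 3.46. In WT it was 3.33 ± 0.04 (SD, n = 8), with 3.27, 3.33 and 3.37, so the KO range enclosed the WT range. KRAB members averaged 2.93 ± 0.10 (SD, n = 10) in KO and 2.92 ± 0.10 (SD, n = 8) in WT. Members without the pattern averaged 3.64 ± 0.08 (SD, n = 10) and 3.64 ± 0.05 (SD, n = 8).

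No member passed the test. With limma over all 10509 genes and a Benjamini-Hochberg adjusted p under 0.05, 0 of 232 members were called (background 0% of all genes), and the smallest adjusted p of a member was 0.811. At an unadjusted p under 0.05 there were 8 members, 5 higher and 3 lower in KO, which is 3.45% of the members against 5.4% of all genes (3.18% higher and 2.22% lower). An exact permutation test called 0 members and gave 13 (5.6%) at an unadjusted p under 0.05 (background 5.45%). Counted by sign, 112 members had the higher mean in KO and 120 the lower, 48.3% higher against 49.6% of all genes. The median log2 fold change was -0.02 (quartiles -0.20 and 0.20), and that of all genes -0.0025. KO and WT values did not overlap for 0 members (background 0.00952%). For 158 members (68.1%) the 95% interval lay within a 2-fold change either way, against 77.1% of all genes, and for the other members the interval reached past a 2-fold change.

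**Figure D5:**
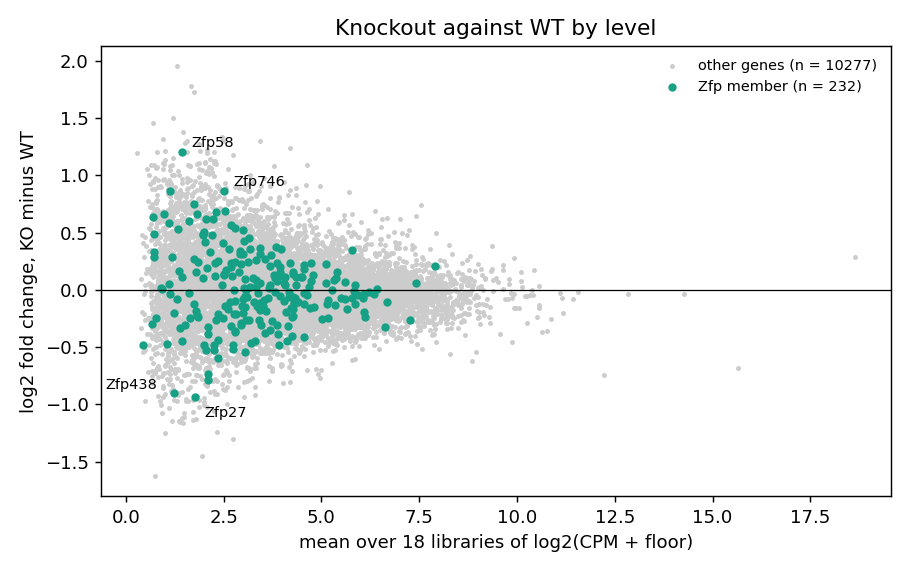
Log2 fold change (KO minus WT) against mean log2 level for 232 Zfp members (green) and 10277 other genes (grey). Members scatter around 0 with a median of -0.02, and the largest fold changes, 1.20 for Zfp58 and -0.93 for Zfp27, are those of members of low level.

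The members with the smallest p were mostly poorly read. Zfp746, known as PARIS, a parkin substrate that represses the gene of PGC-1alpha, had a lowest, median and highest log2 level of 2.44, 2.89 and 3.36 in KO and 0.46, 2.37 and 2.63 in WT, from 3 to 38 reads. Its log2 fold change was 0.86 (SE 0.29, limma unadjusted p = 0.0063, adjusted p = 0.811), and 10 of 10 KO libraries lay above the WT mean. The groups overlapped, and the next library above WT 8 stood at 1.73. Without WT 8 the fold change was 0.64. Zfp58, a KRAB member, ran through 1.09, 2.11 and 2.72 in KO and -0.83, 1.04 and 1.87 in WT, from 0 to 18 reads, with a fold change of 1.20 (SE 0.41, limma adjusted p = 0.811). Its last bases share 62.1% of windows with another transcript, so this value is uncertain.

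The other 4 of the 6 smallest p with a higher KO mean were Zfp1 (log2 fold change 0.69), Zfp182 (0.68), Zfp369 (0.52), which binds the p75 neurotrophin receptor, and Zfp612 (0.35). Zfp612, the best read of them, ran through 5.24, 5.93 and 6.85 in KO and 5.18, 5.58 and 5.90 in WT. Its highest library was KO 2, and without KO 2 the fold change was 0.25. With a lower KO mean, the 6 were Zfp27 (-0.93), Zfp438 (-0.90), Zfp947 (-0.78), Zfp758 (-0.73), Zfp830 (-0.54) and Zfp871 (-0.33). Zfp871 ran through 5.73, 6.59 and 7.19 in KO and 6.51, 6.84 and 7.19 in WT, and 9 of 10 KO libraries lay below the WT mean. Zfp947 had no read in KO 2, and without it its fold change was -0.50. Adjusted p over the 12 genes and the alternatives tried ran from 0.461 to 0.991.

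The co-repressors that work with KRAB proteins had a higher median level than the KRAB genes, with a wide range. Of 26 genes on the co-repressor list, 24 were measured, with a median log2 level of 5.68, against 2.75 for KRAB members. Trim28, the scaffold that binds the KRAB box, averaged 6.51 ± 0.29 (SD, n = 10) in KO and 6.60 ± 0.34 (SD, n = 8) in WT. Below the KRAB median were 5 of the 24: Morc2a (2.64), the histone methyltransferase Setdb1 (1.85), Hdac1 (1.73), Cbx3 (1.67) and Suv39h2 (1.28). Shared 3' ends were examined for Zfp members only, so whether they lower these 5 levels was not tested. The mean was higher in KO for 12 and lower for 12 (background 49.6% higher). Limma called 0 of them (background 0%), with 0 at an unadjusted p under 0.05 (background 5.4%). With 24 genes, a count of 0 at that background is no result about them. The smallest p belonged to the remodeler Chd3, with a log2 fold change of -0.24 (SE 0.14), Mphosph8 of the HUSH silencing complex (0.23, SE 0.17) and the histone methyltransferase Suv39h2 (-0.49, SE 0.39).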

How the data were processed

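RNA was measured in islets of 18 mice. The authors deposited log2 values, 1 column per sample. Per the submitters' processing notes, STAR 2.5.2, HTSeq 0.6.1, edgeR and GRCm38 were used, without roles. Subtracting the shared floor (0.562 CPM) gave whole reads within 0.05 for 100% of values, so depth is the recovered reads over listed genes. PCR copies are not independent molecules, so counting error is a lower limit. Reads of other genes were not used.

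Groups come from the genotype label. Libraries were numbered in accession order, and p-values measure the spread between mice. Members, lists and tests were chosen with earlier results of these data known. Limma 3.58.1 (R 4.3.3; trend, no covariate, two-sided) was fitted to all genes with genes kept if log2 exceeded 0 in 8 or more samples (0 removed), and was tested on simulated data. Alternatives were an exact permutation of the difference of means (43758 regroupings, SciPy 1.17.1), voom on the recovered reads, other scaling, filters and pseudocounts, and leaving out libraries. Relations with depth used 100000 resamples, or all orders for 8 libraries, two-sided. The relation for members under 10 reads, and that over 15 libraries, were added after seeing the data.

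Protein classes came from the longest GENCODE M21 coding sequence of each member, because no RefSeq protein table was used here. A finger is cysteine, 2 to 4 residues, cysteine, 12 residues, histidine, 3 to 5 residues, histidine. Gene positions are RefSeq's on GRCm38. Named members are the 12 of highest level, the 6 of smallest p in each direction, the 6 with the largest spread over counting error at 30 reads or more, those with listed roles, and the 3 with fewest reads. Zfp867, Zfp142, Zfp318, Chd4, Trim28 and the co-repressors below the KRAB median were named after their values were seen.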

Additional observations from a re-analysis of the deposited data

Results flagged for a closer look

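Among 88 sets of values (named members and library measures, each within KO or WT), 8 held a highest or lowest library far from the others by Dixon's test, where chance gives about 1 in 20. WT 7 had the lowest member share of reads in WT, 0.383% against 0.438% for the next, and the most members under 10 reads, 56 against 34. It also had the lowest Zfp950 level in WT, 6.02 against 6.31. WT 8 was lowest in WT for Zfp746, at 0.46 against 1.73, and for the ribosome assembly factor Zfp593, at 0.72 against 2.82. WT 1 was lowest in WT for Zfp758, at 1.32 against 2.28. In KO, the promoter-binding factor Zfp143 had no read in KO 3 (-0.83 against 1.97 for the next), and Zfp384 stood at -0.32 in KO 9 against 2.10.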

How the results depend on the processing

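Members called between genotypes stayed at 0 under each alternative run. Their median log2 fold change lay between -0.0468 and 0.0167 when 1 library was left out (above 0 in 3 of 18 fits), and was -0.0193 without KO 2, KO 3 and WT 7. Members at an unadjusted p under 0.05 numbered 1 with a stricter filter, which kept fewer members, and 15 without the trend. They numbered 13 and 14 in the 12 libraries of runs of animal numbers, and 3 (without KO 2) to 13 with 1 library left out. The share of all genes at that p was not taken in these fits, so these counts have no background beside them. The mean member level was 3.55 with 1 added, 4.18 with a stricter filter and -0.81 after median centring. Members with no read against depth gave r = -0.6 against reads outside insulin (permutation p = 0.00828), but -0.151 over the 15 libraries without KO 2, KO 3 and WT 7. The mean level against depth turned to r = -0.133 without KO 2, KO 3 and WT 7 and to -0.0675 with median centring. The share of reads against depth turned to 0.471 within WT and 0.209 against reads outside insulin. For members under 10 reads r missed the threshold within KO (-0.6) and WT (-0.742), with fewer libraries. With 1 library left out, the 4 relations lay between -0.473 and -0.247 (no read), 0.00848 and 0.328 (mean level), -0.468 and -0.12 (share), and -0.692 and -0.573 (under 10 reads). The causes were not tested. Members under 10 reads had a median SD of 0.99 log2 units, where counting error alone would give 0.53. No paired analysis was possible because the labels give no replicate numbers.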
